A study of Mus musculus with 7 samples.

Results

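PU.1 and MITF binding was followed at the genes of 8 Krüppel-like factors, Klf2, Klf3, Klf4, Klf6, Klf7, Klf9, Klf10 and Klf13, of 22367 protein-coding genes on the main mouse chromosomes. A ChIP-Seq peak was assigned to a gene when its center lay in the gene or within 50 kb of either end on the mm9 genome. This gave 95 of 76243 PU.1 peaks in myeloid precursors (MPs), 87 of 71941 after 36 h of RANKL and 98 of 77072 in osteoclasts (OCs). For MITF, 8 of 5413 peaks lay at the 8 genes in MPs, 8 of 3540 at 36 h and 10 of 4443 in OCs.

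The study asked which genes PU.1 and its partner MITF bind while bone marrow cells become OCs. Marrow of C57BLACK6 mice aged 4 to 6 weeks was grown for 3 days with 50 ng/ml of CSF1, which gave the MPs, and RANKL at 100 ng/ml was given for 36 h or, for the OCs, for 72 h. PU.1 and MITF were each precipitated, with 5 µg of antibody, from MPs, 36 h cells and OCs, and MPs also gave a control precipitation with non-specific IgG. Each of these 7 conditions was a single library, so no difference below has a replicate check, and every test compares 2 libraries and covers sampling noise only. The labels call the cells bone marrow myeloid cells, and the fraction of cells that had become OCs at 36 h or 72 h was not measured here.

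Krüppel-like factors are transcription factors that bind GC-rich and CACCC sequences through zinc fingers at their carboxyl end, and different members activate or repress transcription. Several are known in monocytes and macrophages, where Klf2 restrains activation, Klf4 promotes monocyte differentiation and Klf6 promotes inflammatory gene expression. PU.1 is an ETS factor that marks enhancers of the myeloid lineage and recognizes a GAGGAA core, and MITF, of the helix-loop-helix class with a leucine zipper, recognizes E-boxes such as CACGTG. A peak near a gene is a measurement of binding and not of RNA, and no RNA was measured in these libraries.

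The sites on which the MITF results turn were read from the mm9 genome. They are shown on the plus strand, as the whole peak of the list in which the MITF score was highest, and capitals mark motif matches on either strand. The motifs searched were the PU.1 core GAGGAA, the E-box CACGTG, its variant form CATGTG, and TGANTCA, the motif of AP-1. The Klf3 site, at chr5:65187041-65187269, and the sites of Klf10, at chr15:38218796-38218982, and Klf2, at chr8:74846528-74846772, are shown because they alone had MITF in all 3 lists. The Klf13 site, at chr7:71056273-71056423, and the Klf9 site, at chr19:23189046-23189196, had the highest MITF score of their gene, in OCs. Other sites with MITF in OCs are not shown.
Klf3, intergenic, 7.5 kb upstream: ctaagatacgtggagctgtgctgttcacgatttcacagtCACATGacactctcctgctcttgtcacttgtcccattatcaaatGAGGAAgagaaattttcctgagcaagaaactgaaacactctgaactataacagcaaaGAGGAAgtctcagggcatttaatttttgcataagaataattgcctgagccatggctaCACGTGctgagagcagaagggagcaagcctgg
Klf10, intergenic, 2.3 kb past the 3′ end: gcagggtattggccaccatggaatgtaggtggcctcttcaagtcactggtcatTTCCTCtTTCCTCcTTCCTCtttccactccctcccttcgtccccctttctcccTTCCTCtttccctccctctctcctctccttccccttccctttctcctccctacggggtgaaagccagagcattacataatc
Klf2, intergenic, 1.1 kb past the 3′ end: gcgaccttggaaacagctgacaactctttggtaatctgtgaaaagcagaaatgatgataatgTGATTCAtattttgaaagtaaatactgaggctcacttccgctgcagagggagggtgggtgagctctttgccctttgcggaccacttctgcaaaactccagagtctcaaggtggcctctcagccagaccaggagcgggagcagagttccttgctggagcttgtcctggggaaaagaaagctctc
Klf13, intron: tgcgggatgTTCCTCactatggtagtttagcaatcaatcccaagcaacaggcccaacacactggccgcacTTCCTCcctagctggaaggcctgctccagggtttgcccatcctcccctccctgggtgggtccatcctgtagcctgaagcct
Klf9, intergenic, 26.6 kb upstream: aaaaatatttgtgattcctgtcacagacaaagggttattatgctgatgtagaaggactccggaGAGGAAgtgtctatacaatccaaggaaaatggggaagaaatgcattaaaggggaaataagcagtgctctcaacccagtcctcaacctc

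The Klf3 site held 2 GAGGAA cores and both E-box forms, CACGTG once and CATGTG once, the latter read on the other strand as CACATG. The CACGTG lay near the edge of this 36 h peak, beyond the ends of the MITF peaks of MPs (65187226) and OCs (65187208). The Klf10 site held 4 GAGGAA cores, all on the minus strand within a pyrimidine-rich run, and no E-box. The Klf2 site held no GAGGAA and 1 AP-1 motif, the Klf13 site held 2 GAGGAA cores, and the Klf9 site held 1. The highest MITF sites of Klf6 and Klf7 are not printed. That of Klf7 held 1 GAGGAA and 1 AP-1 motif, and that of Klf6 held none of the motifs searched.

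Deposited Peak Scores count the tags (mapped reads) in a peak after HOMER brought the libraries to the same size. In each list they were whole multiples of 1 value to within 0.0499, so tags per peak could be recovered. A PU.1 peak needed at least 6 tags in MPs and 7 at 36 h and in OCs to be listed. A MITF peak needed at least 9, 10 and 8 tags, so a site without a listed peak may still hold fewer tags than this. All peaks of the MITF lists of MPs and OCs were 150 bp wide, and those of the PU.1 lists of MPs and OCs were at most 150 bp. PU.1 peaks at 36 h were at most 190 bp wide and MITF peaks at 36 h were 150 to 1387 bp (median 169), and a wider peak can collect more tags. No IgG peak lay at the 8 genes, and no PU.1 or MITF peak there overlapped an IgG peak. Over the whole lists such overlap was as rare, with 4 PU.1 peaks in each list and 1, 7 and 0 MITF peaks (MPs, 36 h and OCs). The IgG list held only 349 peaks, all from MPs, and its lowest score was 22.4, so it could flag few low peaks. PU.1 peaks were found within the same window of all 5 macrophage genes looked up (Csf1r, Itgam, Emr1, Cd68 and Lyz2) and of the 4 OC genes matched of 5, but also of all 3 B cell, 3 T cell and 4 osteoblast genes.

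PU.1 lay at all 8 genes in all 3 lists. The median was 13 peaks per gene in MPs, 10.5 at 36 h and 12.5 in OCs, against 6 over all protein-coding genes in each list. Since long genes have larger windows, peaks were also counted per 100 kb of window. The medians were then 8.64, 8.37 and 10.1 at the Klf genes and 4.72, 4.64 and 4.85 over all genes. Of all protein-coding genes, 83.8%, 83.3% and 83.8% had a PU.1 peak, so the presence of PU.1 did not set the Klf genes apart. The median peak was of usual height, with a Peak Score of 23.9, 26.6 and 23.5 at the Klf genes against 23.9, 23.7 and 23.5 in the whole lists. Some single peaks were among the highest, and only 0.299% of the MP list exceeded the highest Klf3 peak.

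Most PU.1 peaks were far from the gene start. In MPs, 29 of the 95 peaks were in introns, 31 upstream and 32 downstream, and the split was 22, 33 and 29 of 87 at 36 h and 27, 31 and 37 of 98 in OCs. A PU.1 peak lay within 1 kb of a coding transcript start at 5 of the 8 genes in MPs and at 6 in the later lists. The nearest coding start was that of the Klf gene itself for 85, 79 and 91 peaks. The exceptions were mainly at Klf2, whose window also holds Gm10282 and Eps15l1. There 4 of 13 peaks in MPs, 4 of 11 at 36 h and 8 of 14 in OCs had Klf2 as their nearest start. The window of Klf9 also overlaps Smc5.

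**Figure D1:**
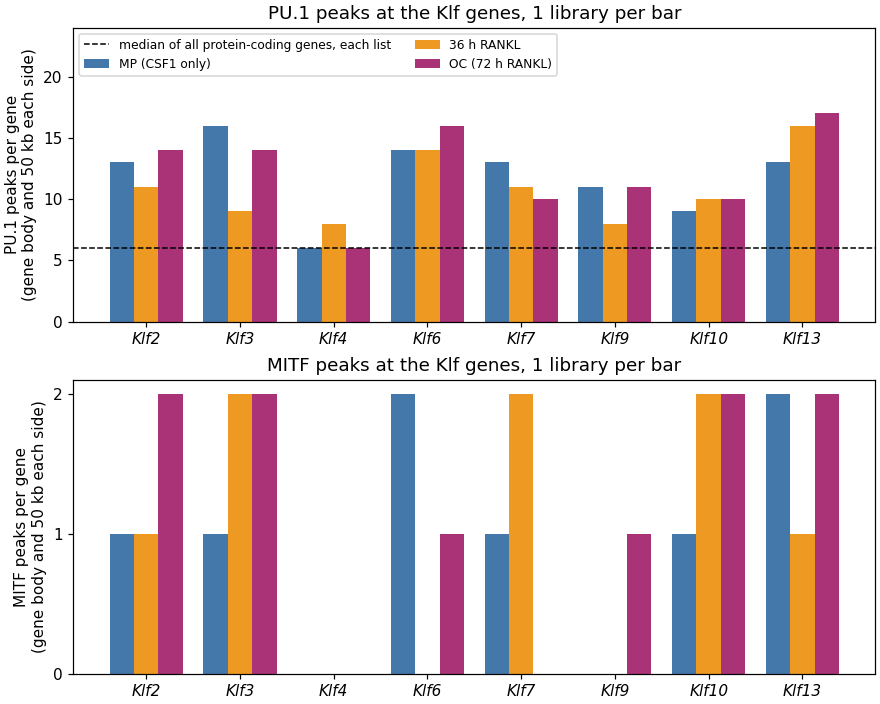
Number of PU.1 (top) and MITF (bottom) peaks at each Klf gene, with 1 bar per library (blue, MPs; orange, 36 h; purple, OCs) and the median of all protein-coding genes, 6 in each PU.1 list, as a dashed line. Klf4 had the fewest PU.1 peaks in MPs, at 36 h (with Klf9) and in OCs, and no MITF peak at any time.

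Klf3, a repressor of transcription in blood cells, carried the highest PU.1 peak of the 8 genes. The gene (ENSMUSG00000029178.7) lies at chr5:65194628-65221368 on the plus strand, and its PU.1 sites at 9.2 and 7.5 kb upstream stood far above its others. The site at 9.2 kb scored 274.6 in MPs, 198.1 at 36 h and 176.2 in OCs. The site at 7.5 kb, where MITF was also found, scored 245.6, 211.4 and 186.5. Scores were highest in MPs and lowest in OCs at both sites, whereas the site at 38.8 kb upstream scored 54.6, 69.5 and 101.3, in the opposite order. The number of peaks at Klf3 was 16 in MPs, 9 at 36 h and 14 in OCs, and the 8 sites of Klf3 without a 36 h peak were low, with scores of 10.2 to 26.4.

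Klf2 (ENSMUSG00000055148.7, chr8:74842932-74845555, plus strand), which restrains inflammatory activation of myeloid cells, had 13, 11 and 14 PU.1 peaks in MPs, at 36 h and in OCs. Its highest site, 3.7 kb from the 5′ end and downstream of the gene, scored 230.3, 181.8 and 171.8. A site 1.2 kb upstream of the start scored 90.4, 106.4 and 107.2. The Klf2 gene itself, 2.6 kb long, held no PU.1 peak center, so all its sites were on either side.

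Klf10 (ENSMUSG00000037465.8, chr15:38221219-38230464, minus strand) is a TGF-beta inducible factor with known roles in bone. It had 9, 10 and 10 PU.1 peaks. Its highest site, 11.6 kb from the 5′ end and downstream of the gene, scored 214.9, 196.6 and 192.4, and a neighbor at 14.8 kb scored 114.3, 91.6 and 80.8. The next highest site at Klf10 did not exceed 58.7 in any list.

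Klf13 (ENSMUSG00000052040.7, chr7:71031237-71083801, minus strand), a factor described in T cells, had 13, 16 and 17 PU.1 peaks. Intronic sites between 22.3 and 30 kb from its 5′ end held most of its signal. The site at 30 kb scored 192.8 in MPs, 186.2 at 36 h and 180.6 in OCs. The site at 27.5 kb scored 180.8, 161.1 and 205.6 and was the highest in OCs. The site at 22.3 kb scored 153.5, 94.6 and 107.2.

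Klf6 (ENSMUSG00000000078.6, chr13:5860735-5869639, plus strand), which promotes inflammatory gene expression in macrophages, had 14, 14 and 16 PU.1 peaks. Its density, 12.86 peaks per 100 kb in MPs and 14.69 in OCs, was the highest of the 8 genes in MPs, at 36 h and in OCs. Its highest site in MPs and at 36 h, 27.5 kb from the 5′ end, scored 151.8 and 125.6. In OCs a peak with a score of 110.1 lay beside it with a gap of 14 bp, and since the peaks did not overlap they were counted as different sites. This OC peak was the highest PU.1 site at the Klf genes listed at a single time.

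Klf7 (ENSMUSG00000025959.6, chr1:64076021-64168856, minus strand), best known in neurons, is the longest of the 8 genes at 92.8 kb and had 13, 11 and 10 PU.1 peaks. One site covered its 5′ end and scored 121.1, 127.1 and 132.2. It was the highest PU.1 peak of Klf7 at 36 h and in OCs. The only other highest site within 1 kb of a 5′ end was that of Klf9 in MPs, 0.5 kb upstream. An intronic site 43.7 kb from the 5′ end scored 138.2, 97.6 and 117.5.

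Klf9 (ENSMUSG00000033863.1, chr19:23215716-23241401, plus strand), a glucocorticoid-inducible member, and Klf4 (ENSMUSG00000003032.7, chr4:55540013-55545347, minus strand) had the lowest PU.1 scores. The highest peak of Klf9 scored 58.0 in MPs, at 0.5 kb upstream of the start. At 36 h and in OCs it was the site 26.6 kb upstream, which scored 56.3, 59.1 and 91.0 over the 3 lists. Klf4 had 6, 8 and 6 PU.1 peaks, and its highest, 43.6 kb from the 5′ end, scored 49.5, 69.5 and 57.3. Klf4 was also the only one of the 8 genes whose summed PU.1 score, 126.2, 207 and 158.5, did not exceed the median of all genes (204.7, 187.7 and 208.4) in MPs and OCs.

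**Figure D2:**
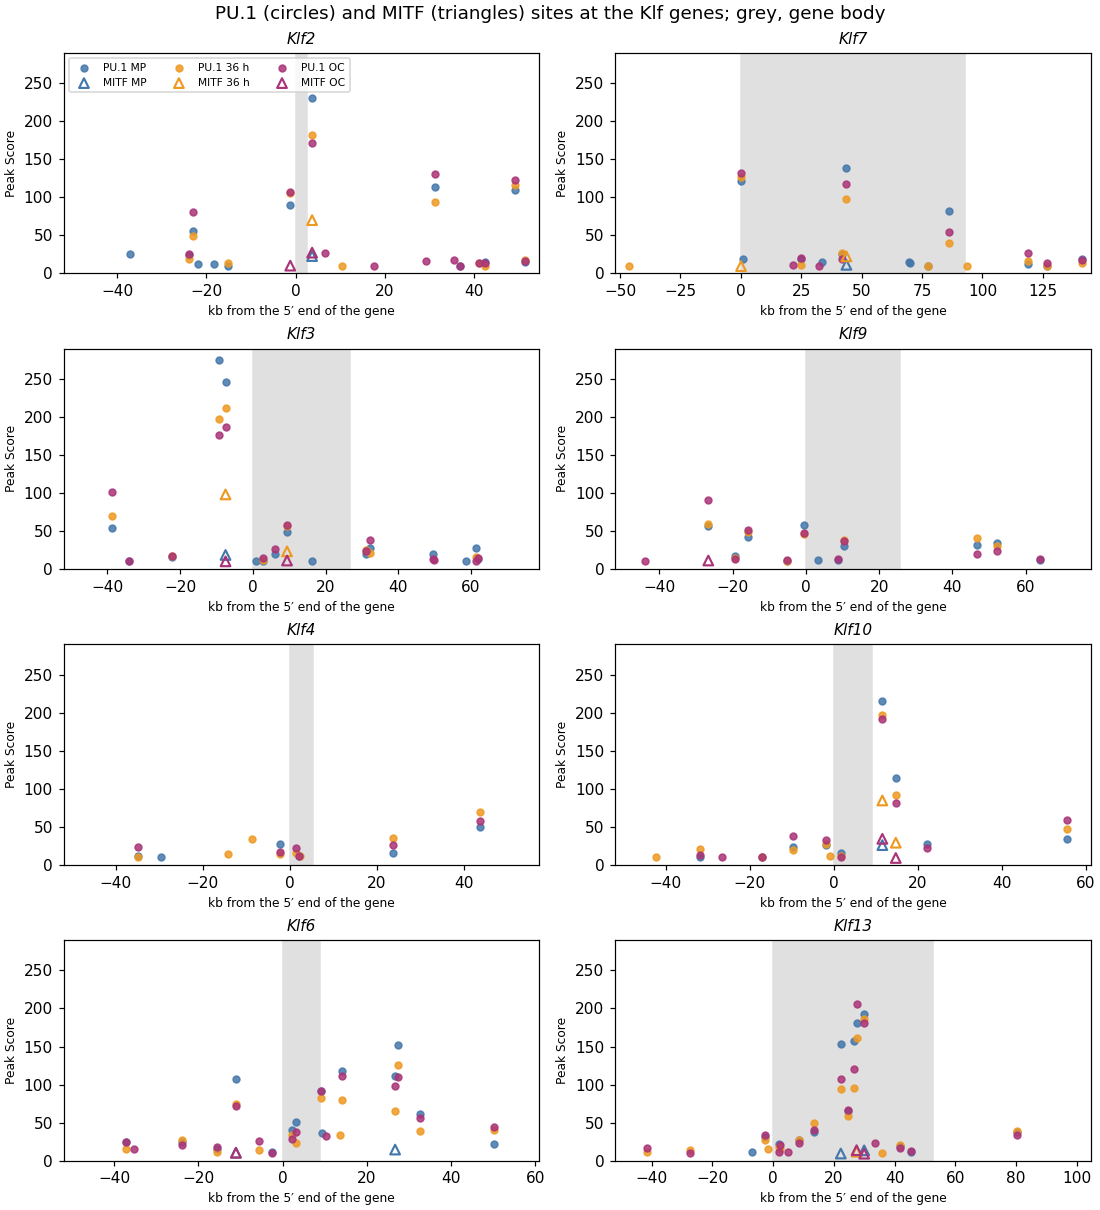
Peak Score of each PU.1 site (circles) and MITF site (triangles) against its distance in kb from the 5′ end of the gene, 1 panel per gene, colored by library, with the gene body in grey. Klf3, Klf2 and Klf10 had PU.1 sites of 274.6, 230.3 and 214.9 in MPs, and no site of Klf4 exceeded 69.5.

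When overlapping peaks of the 3 lists were joined, the 8 genes held 126 PU.1 sites, of which 67 (53.2%) were in all 3 lists, against 50.5% of the 102370 PU.1 sites of the genome. Single-list sites numbered 14 in MPs, 11 at 36 h and 14 in OCs. That is 11.1%, 8.73% and 11.1% of the sites, close to the 11.1%, 9.03% and 10.3% over the genome. The median scores of the single-list sites at the 8 genes, 11.9, 11.8 and 13.2, were near the lowest scores of the lists (10.2, 10.3 and 10.3). A site of Klf4 found only at 36 h, 8.8 kb upstream, scored 34, as did a 36 h site of Klf6 at 13.5 kb, and these were the highest of the 36 h group. The share of sites in all 3 lists ran from 40% at Klf4 (4 of 10) and 42.1% at Klf2 (8 of 19) to 66.7% at Klf9 and Klf10 (8 of 12 each).

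Tags were compared at sites with a peak in both lists, by a two-sided exact binomial test against the median tag ratio of all matched peaks. A change was called at a Benjamini-Hochberg adjusted p under 0.05, over all pairs of the genome, with at least a 2-fold change. No PU.1 site at the 8 genes with a peak in both lists was called changed. Peaks with no match in the other list were not tested, so no site could be called gained or lost. The matched share of the earlier and later list was 73.7% and 80.5% for 36 h against MPs (73.9% and 78.3% over the genome). It was 83.9% and 74.5% for OCs against 36 h (80.6% and 75.3%), and 81.1% and 78.6% for OCs against MPs (78.8% and 78%). For 36 h against MPs, 0 of 70 sites was called and 7 had an unadjusted p under 0.05. Of all 56340 pairs, 0.341% were called higher and 0.712% lower at 36 h, and 10.9% had an unadjusted p under 0.05. For OCs against 36 h, 0 of 73 sites was called and 1 had an unadjusted p under 0.05, whereas 0.0224% of all pairs were called higher and 0.0483% lower, and 6.45% had an unadjusted p under 0.05. For OCs against MPs, 0 of 77 was called and 10 had an unadjusted p under 0.05, with 0.0682% of all pairs called higher and 0.0882% lower and 7.84% at an unadjusted p under 0.05. With so few pairs called over the genome, 0 calls among 70 to 77 sites was close to the background. The 3 comparisons share libraries and are not independent.

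The sites were not shown to be constant. The 95% interval of the change lay within 2-fold in either direction for 21 of 70 pairs at 36 h against MPs, 23 of 73 for OCs against 36 h and 20 of 77 for OCs against MPs, and these were the deeper sites. The highest site of Klf10 had a log2 fold change of -0.14 (-0.50 to 0.23) between MPs and OCs, with 126 and 131 tags. The lowest exact adjusted p was 0.09, for the Klf3 site at 9.2 kb upstream in OCs against MPs. It held 161 tags in MPs and 120 in OCs, with a log2 fold change of -0.62 (-0.97 to -0.27). At 36 h against MPs the lowest was 0.191 (exact test), for an intronic Klf7 site 86.2 kb from the 5′ end, with a score of 81.9 in MPs and 39.9 at 36 h.

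**Figure D3:**
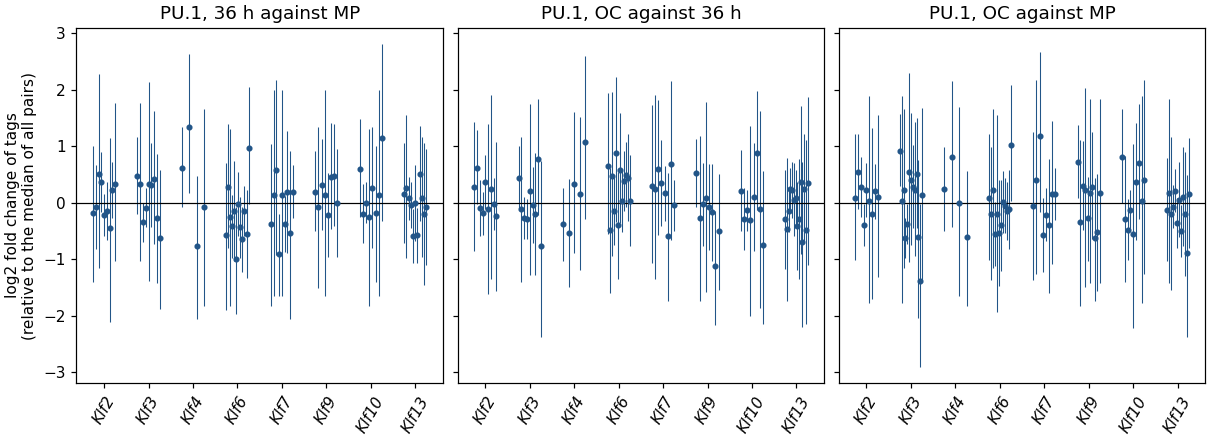
Log2 fold change in tags at each PU.1 site with a peak in both lists, by gene, for the 3 comparisons, relative to the median of all pairs, with 95% intervals for sampling noise only. Most intervals cross 0, and no site passed the adjusted threshold.

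MITF was found at 7 of the 8 genes in at least 1 list, at 14 sites in all, and Klf4 had none. It lay at 6 genes in MPs, 5 at 36 h and 6 in OCs, where 32.1%, 24% and 28.8% of all protein-coding genes had a MITF peak. With at most 2 peaks per gene, MITF was sparse. Sites in all 3 lists numbered 3 of 14, against 26.1% of the 7693 MITF sites of the genome.

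All MITF peaks at the 8 genes overlapped PU.1 in the list of the same time, 8 of 8 in MPs, 8 of 8 at 36 h and 10 of 10 in OCs. The 95% Wilson intervals were 67.6 to 100% for the 8 peaks of MPs and of 36 h, and 72.2 to 100% for OCs. Over whole lists the share was 97.91%, 93.84% and 93.29%, so overlap with PU.1 was the rule for MITF peaks everywhere. Seen from PU.1, 8.42% (4.33 to 15.7), 9.2% (4.73 to 17.1) and 10.2% (5.64 to 17.8) of its peaks at the 8 genes overlapped MITF. In the whole lists it was 6.951%, 4.618% and 5.378%. In MPs the share over the whole list lay inside the Wilson interval of the Klf genes, and at 36 h and in OCs it lay just below the lower end. The intervals cover counting error only, and no test of this difference was made.

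At the 3 sites bound by MITF in every list, the 36 h score was the highest. The Klf3 site 7.5 kb upstream scored 18.7 in MPs, 98.3 at 36 h and 10.3 in OCs, which is 18, 101 and 9 tags. The Klf10 site, 11.6 kb from the 5′ end, scored 26, 84.7 and 34.3, which is 25, 87 and 30 tags. The Klf2 site, 3.7 kb from the 5′ end, scored 22.9, 70.1 and 27.4, which is 22, 72 and 24 tags. PU.1 scores at these sites had no such maximum at 36 h, as given above.

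Much of the 36 h maximum was shared by the MITF list as a whole, since the median tag ratio of matched MITF peaks was 1.7368 for 36 h to MPs. If implied library sizes were used for scaling in place of this median, the median change of all pairs would be 0.70 on the log2 scale for 36 h against MPs and -0.85 for OCs against 36 h. For OCs against MPs the shift would be -0.105, and for PU.1 it would be -0.12, 0.11 and -0.02 for 36 h against MPs, OCs against 36 h and OCs against MPs. Changes are therefore given relative to the median. Peaks at these sites were also wider at 36 h, 228 bp at Klf3, 186 bp at Klf10 and 244 bp at Klf2, against 150 bp in MPs and OCs, and tags were therefore also compared per width of the peak.

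Relative to the median, 2 of 4 matched MITF sites were called higher at 36 h than in MPs and none lower. Over all 2509 pairs, 9.8% were called higher and 5.38% lower. The Klf3 site rose by a log2 fold of 1.69 (0.96 to 2.50), with an exact adjusted p of 1.24e-05. The Klf10 site rose by 1.003 (0.35 to 1.71), at the 2-fold limit itself, with an exact adjusted p of 0.015, and it was no longer called when tags were taken per width of the peak (exact adjusted p of 0.0541) or when low peaks were dropped (0.0972). The Klf2 site had a log2 fold of 0.91 (0.21 to 1.67) with an exact adjusted p of 0.045 and was not called, being under 2-fold. Per width of the peak its log2 fold was 0.48 (exact adjusted p of 0.536), against 1.35 at the Klf3 site (exact adjusted p of 0.00437). The intronic Klf7 site at 43.7 kb, with 11 and 23 tags, had a log2 fold of 0.27 (-0.83 to 1.45) and an exact adjusted p of 0.857.

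From 36 h to OCs, 1 of 6 matched MITF sites was called, the Klf3 site, which was lower in OCs. Over all 2349 pairs, 6.68% were called lower and 2.98% higher. Its log2 fold change was -2.41 (-3.58 to -1.43), with an exact adjusted p of 3.61e-07, so 101 tags at 36 h stood against 9 in OCs. At the Klf10 site the change was -0.46 (-1.11 to 0.16) and at the Klf2 site -0.50 (-1.24 to 0.18), and neither was called, although both were called lower when the ratio of library sizes replaced the median (log2 -1.31 and -1.36). Only the Klf13 site at 27.5 kb had a higher value in OCs, with 12 tags in each list and a log2 fold of 1.08 (-0.20 to 2.36) relative to the median, which was not called.

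Between MPs and OCs, 0 of 5 matched MITF sites was called and 0 had an unadjusted p under 0.05. Of all 2844 pairs 0% were called higher and 0% lower, and 92 (3.23%) had an unadjusted p under 0.05 in the exact test. The Klf3 site had 18 tags in MPs and 9 in OCs, with a log2 fold of -0.76 and a 95% interval from -2.10 to 0.47. The interval for Klf10 ran from -0.31 to 1.33 and that for Klf2 from -0.53 to 1.27. All 5 intervals reach past 2-fold in at least 1 direction, so these sites were too shallow to exclude such a change.

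The other 11 MITF sites scored 29.2 or less. The median of the whole MITF list was 12.5 in MPs, 23.4 at 36 h and 11.4 in OCs, so some of them were typical peaks. At 36 h and in OCs, and not in MPs, MITF lay 14.8 kb from the 5′ end of Klf10 (29.2 and 9.1), in an intron of Klf3 at 9.4 kb (23.4 and 11.4) and in an intron of Klf13 at 27.5 kb (11.7 and 13.7). In MPs and OCs only, it lay at 30 kb in Klf13 (13.5 and 9.1) and 11.1 kb upstream of Klf6 (10.4 and 10.3). In MPs only, it lay 26.7 kb from the 5′ end of Klf6 (14.5) and at 22.3 kb in Klf13 (9.3). At Klf7 no MITF peak was listed in OCs. Its intronic site scored 11.4 in MPs and 22.4 at 36 h and the site at the 5′ end scored 9.7 at 36 h only. In OCs only, MITF lay 1.2 kb upstream of Klf2 (10.3) and 26.6 kb upstream of Klf9 (11.4). Of the 14 sites, 36 h with OCs made 21.4%, and MPs with OCs, MPs alone and OCs alone made 14.3% each. MPs with 36 h and 36 h alone made 7.14% each. Over all 7693 MITF sites the shares were 4.47%, 10.9%, 26.8%, 16.3%, 6.55% and 8.93%, in the same order. These few counts were not tested. Scores near the floor of the lists (9.3, 9.7 and 9.1) do not tell a gained or lost site from one that crossed the floor by a few tags.

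At Klf9 the site with MITF in OCs was one where PU.1 had 33 tags in MPs and 62 in OCs, with a log2 fold of 0.72 (0.09 to 1.37), an unadjusted exact p of 0.0232 and an adjusted p of 0.494. At Klf6 the site with MITF only in MPs, at 26.7 kb, had a PU.1 score of 110.9 in MPs, 65.0 at 36 h and 98.4 in OCs. Other sites differed. At Klf10 the site at 14.8 kb, with MITF at 36 h and in OCs only, had PU.1 scores of 114.3, 91.6 and 80.8. The site 11.1 kb upstream of Klf6, with MITF in MPs and OCs only, had PU.1 scores of 107.5, 73.9 and 72.0. Whether PU.1 and MITF changed together was not tested. The PU.1 scores at the 14 MITF sites ran from 49.5 to 245.6 in MPs, where the median of all PU.1 peaks at the 8 genes was 23.9. They ran from 56.2 to 211.4 at 36 h and from 58.7 to 205.6 in OCs.

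**Figure D4:**
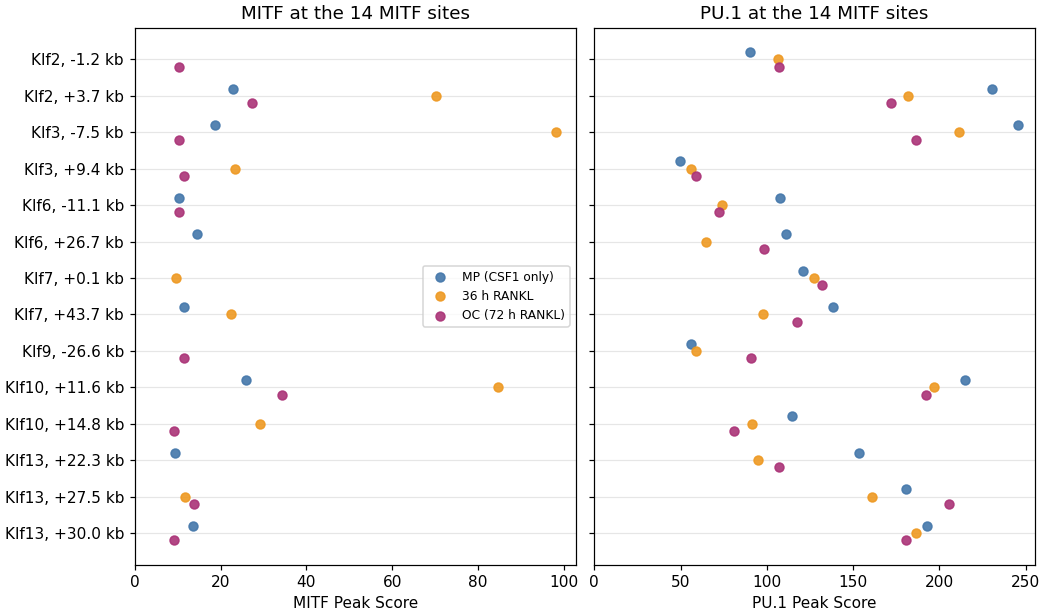
Peak Score of MITF (left) and of PU.1 (right) at the 14 MITF sites of the Klf genes, named by gene and distance in kb from the 5′ end, colored by library, with no point where the list has no peak. MITF at the Klf3, Klf10 and Klf2 sites reached 98.3, 84.7 and 70.1 at 36 h, while PU.1 was highest in MPs at the same sites.

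The study tested Klf7 and Klf10 by conventional ChIP, and its primers match 1 segment each in mm9, so the lists can be read there. The primers are shown because they tie the peaks to these assays, and those of Klf10 lie in the site printed above.
Klf10, forward: ggcctcttcaagtcactggt
Klf10, reverse: acgaagggagggagtgga
Klf7, forward: aagtgccagagaggaagtgc
Klf7, reverse: agctagtctccgtgcagctc

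The Klf10 segment, 63 bases at chr15:38218826-38218888 and intergenic, lay in the PU.1 peak with scores of 214.9, 196.6 and 192.4 and in the MITF peak with scores of 26, 84.7 and 34.3. The Klf7 segment, 64 bases at chr1:64168829-64168892, overlapped the 5′ exon and UTR of Klf7. It lay in the PU.1 peak with scores of 121.1, 127.1 and 132.2, and MITF was listed there at 36 h alone, with a score of 9.7, which is 10 tags.

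Motifs were counted in 150 bp around peak centers, on both strands and allowing overlap between motifs. GAGGAA was in 44.2%, 44.8% and 50% of PU.1 peaks at the 8 genes (MPs, 36 h and OCs) and in 54.9%, 55.5% and 55.7% of all PU.1 peaks. In MITF peaks it was in 5 of 8, 7 of 8 and 9 of 10 at the Klf genes, against 67.2%, 68.7% and 67.1% of all. An E-box of either form was in 1 MITF peak of each list at the Klf genes and in 13%, 11.3% and 11.7% of all MITF peaks. At the Klf genes it was CATGTG each time, and CACGTG was in 0 of these MITF peaks within 150 bp. TGANTCA was in 2 of 8, 2 of 8 and 1 of 10 MITF peaks, and in 9.44%, 8.71% and 7.31% of all. These matches describe the letters in the window, and no test was made on them.

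The remaining 18 KLF and SP genes, which share the zinc finger domain, gave a comparison within the family. PU.1 peaks lay at 17 of the 18 in each list, and Klf17 had none. Their median was 6, 4.5 and 4.5 PU.1 peaks, against 13, 10.5 and 12.5 at the 8 Klf genes. Sp1 had 16, 14 and 13 PU.1 peaks and 2 MITF peaks in each list, and Klf5 had 1 PU.1 peak in each. Sp7 had 17, 14 and 15 PU.1 peaks, Sp2 had 12, 14 and 17, and Sp3 had 14, 11 and 16. The most at any of the 8 Klf genes was 16, 16 and 17, so some relatives had as many. These counts were not scaled to the length of the window. MITF lay at 4, 5 and 6 of the 18. The 8 genes were chosen with peaks of these data known, so the difference is a description.

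For each gene the protein-coding gene with the most similar summed scores over the 6 libraries was found, by the Euclidean distance of log2(summed score + 1). Klf3 was nearest to Tlr4, at a distance of 0.38, the largest of the 8, with summed MITF scores of 18.7, 121.7 and 21.7 for Klf3 and 16.6, 115.8 and 18.3 for Tlr4. Klf10 was nearest to Prkdc (0.29) and Klf2 to Gabrb1 (0.23), both with their highest MITF sum at 36 h. Klf7 was nearest to Tef (0.3), Klf13 to 1110007C09Rik (0.2), Klf6 to Pigu (0.16), Klf9 to Coro1b (0.1) and Klf4 to Duox1 (0.07). These are neighbors in 6 values among 22367 genes.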

How the data were processed

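Per the labels and the study's methods, reads were processed with CASAVA 1.8, mapped with Bowtie2 to mm9, and peaks were called with HOMER; versions of the latter and calling settings are not given in the sources used here. The authors deposited 1 peak list per library, in which Peak Score is a score that HOMER scales to a common library size. Tags per peak were recovered by dividing scores by the worth of 1 tag. With HOMER's default scale, which is assumed, libraries held 5860000, 6770000 and 6810000 tags for PU.1 and 9630000, 10270000 and 8760000 for MITF (MPs, 36 h and OCs), and 3120000 for IgG.

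Genes were taken from GENCODE vM1 on NCBIM37 (mm9). Distances run from the outermost 5′ end. Peaks overlapped when they shared at least 1 bp. Overlapping peaks of 2 lists were compared 1 to 1 by the exact binomial test, which was tested on simulated data. All 8 genes were named, with their highest PU.1 peak per list, every MITF peak and every called site. Not every PU.1 peak near a start and not every gene's PU.1 site of smallest p was given. Other PU.1 sites were chosen for the text after their values were seen. The members, gene lists and motifs were chosen with earlier results of these data known. The alternatives were other windows, thresholds, list lengths, overlap rules and scalings; scaling by width and leaving out the 36 h lists were added after seeing the data. Python 3.11.15, numpy 2.4.6, scipy 1.17.1, pandas 2.3.3 and matplotlib 3.10.9 were used.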

Additional observations from a re-analysis of the deposited data

How the results depend on the processing

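With 1 library per condition, sampling noise is the error given, and no library could be left out within a condition. No paired analysis was possible because each condition had only 1 library. Counts depended on the score threshold and the window. When peaks under 2 times the floor of each list were dropped, PU.1 peaks at the 8 genes numbered 56 in MPs, 50 at 36 h and 59 in OCs, and MITF peaks numbered 3 in MPs and 2 in OCs, all overlapping PU.1 (3 and 2). With 100 kb to either side, PU.1 peaks numbered 165, 139 and 164, and MITF peaks 14 in MPs and 16 in OCs, of which 14 of 14 in MPs and 15 of 16 in OCs overlapped PU.1, so the complete overlap did not extend to the wider window.

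The PU.1 result of 0 called sites held under each alternative run. MITF calls for 36 h against MPs went from 2 to 1 with the higher score threshold, and to 1 when tags were taken per width of the peak. The Klf3 site was called in both, and the Klf10 site lost its call (log2 0.76, exact adjusted p 0.0972, and 0.96, 0.0541). By the ratio of library sizes Klf2 was called as well (log2 1.62, exact adjusted p 7.18e-06). For OCs against 36 h, 4 sites were called by the ratio of library sizes, and 0 with the higher threshold, under which the Klf3 peak in OCs was no longer in the list. By library sizes the genome-wide calls became 823 higher and 20 lower for 36 h against MPs (246 and 135 by the median) and 4 higher and 894 lower for OCs against 36 h (70 and 157). The remaining 59 counts stayed within 1.5 times, and 1 direction was reversed, that of the MITF site 11.1 kb upstream of Klf6 in OCs against MPs, which was not called (log2 0.089 by the median and -0.016 by library sizes).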
